A study of Arabidopsis thaliana with 3 samples.

Results

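Aquaporins are channel proteins that let water and small uncharged solutes through membranes, and the 35 loci of this family in Arabidopsis thaliana were taken by locus from the deposited counts of 33602 genes. They fall into 4 classes: 13 plasma membrane intrinsic proteins (PIPs, 5 of group PIP1 and 8 of group PIP2), 10 tonoplast intrinsic proteins (TIPs), 9 NOD26-like intrinsic proteins (NIPs) and 3 small and basic intrinsic proteins (SIPs). Each of the 35 loci was listed in every library, and the reference annotation gave each a name of the family. In all, 28 of them reached 30 counts summed over the libraries and were compared, among 20109 such genes.

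The 3 libraries came from the first pair of rosette leaves of Col-0 plants, with 1 library per group. The plants had grown on half-strength MS medium, and all libraries carry an age label of 12 days after sowing, so it is not known whether the 2-day samples were 2 days older. One group holds leaf explants at 2 days of wounding (the wounded explant), cultured on B5 medium that lacked carbohydrate, another is labelled a 2-day control, and T0 is labelled only as control. The series text names a wound site and the rest of the leaf, yet no label gives the piece of leaf in a library or tells whether the 2-day control was detached. The T0 library held 43099934 counts in genes, the 2-day control 45097732 and the wounded explant 46713257.

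Levels are CPM, the usual unit of counts divided by sequencing depth, after TMM scaling, which sets libraries to a common size on the bulk of their genes. A ratio between the 2-day libraries is the wounded explant over the 2-day control. A gene is called higher or lower between libraries where the whole 95% Clopper-Pearson interval of its ratio lies past 2-fold. The interval stands in brackets after a ratio and covers counting error only, as it comes from the split of a gene's counts between the libraries compared. No molecular tags are recorded, so reads may repeat 1 molecule, and the interval may then be too narrow. With 1 library per group there is no replicate check and no p-value, and a call compares libraries, not conditions. Bulk RNA also cannot tell fewer cells of a type from less RNA per cell. Where levels of different genes are set side by side, they are CPM per kilobase of exon, with exon lengths from the TAIR10.1 models. Each gene is introduced with its systematic name and locus, and PIPs, SIPs and most TIPs then go by the letter or Greek-letter synonym of the reference annotation.

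PIPs sit in the plasma membrane and carry water into and out of the cell, and PIP1 proteins need a PIP2 partner to reach that membrane well. TIPs sit in the membrane of the vacuole, where they let the largest water store of the plant cell exchange quickly with the cytosol, and serve as markers of vacuole type. NIPs carry solutes such as boric acid more than water, and SIPs lie in the endoplasmic reticulum. In leaves, PIPs and TIPs set how easily water moves between veins and mesophyll, and PIP transcripts as a group are known to decline when leaves dry.

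Summed over the 35 loci, aquaporin transcripts made up 0.591% of all counts at T0, 0.521% in the 2-day control and 0.295% in the wounded explant. The scaled sum stood at 6719 CPM at T0, 4925 CPM in the 2-day control and 2742 CPM in the wounded explant. The wounded explant sum was thus 1.80 times lower than that of the 2-day control (1.78 to 1.81) and 2.45 times lower than that at T0 (2.43 to 2.47). The ratio to T0 was 0.408 and became 0.499 with total counts as the scaling. The TIPs had the widest drop, from 2845 CPM at T0 and 2011 CPM in the 2-day control to 775 CPM in the wounded explant. Their explant sum was 2.59 times lower than that of the 2-day control (2.56 to 2.63). The PIP1 sum was 1.63 times lower there (1.61 to 1.64) and the PIP2 sum 1.51 times lower (1.49 to 1.53), both short of 2-fold. The NIP sum moved the other way, with 11.6 CPM in the 2-day control and 48.7 CPM in the wounded explant, 4.19-fold higher (3.82 to 4.60). The SIP sum was 1.37-fold higher (1.32 to 1.42), short of the limit. In levels per kilobase, TIPs held 46.7% of the aquaporin total in the 2-day control and 33.2% in the wounded explant, and NIPs 0.234% and 1.62%.

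**Figure D1:**
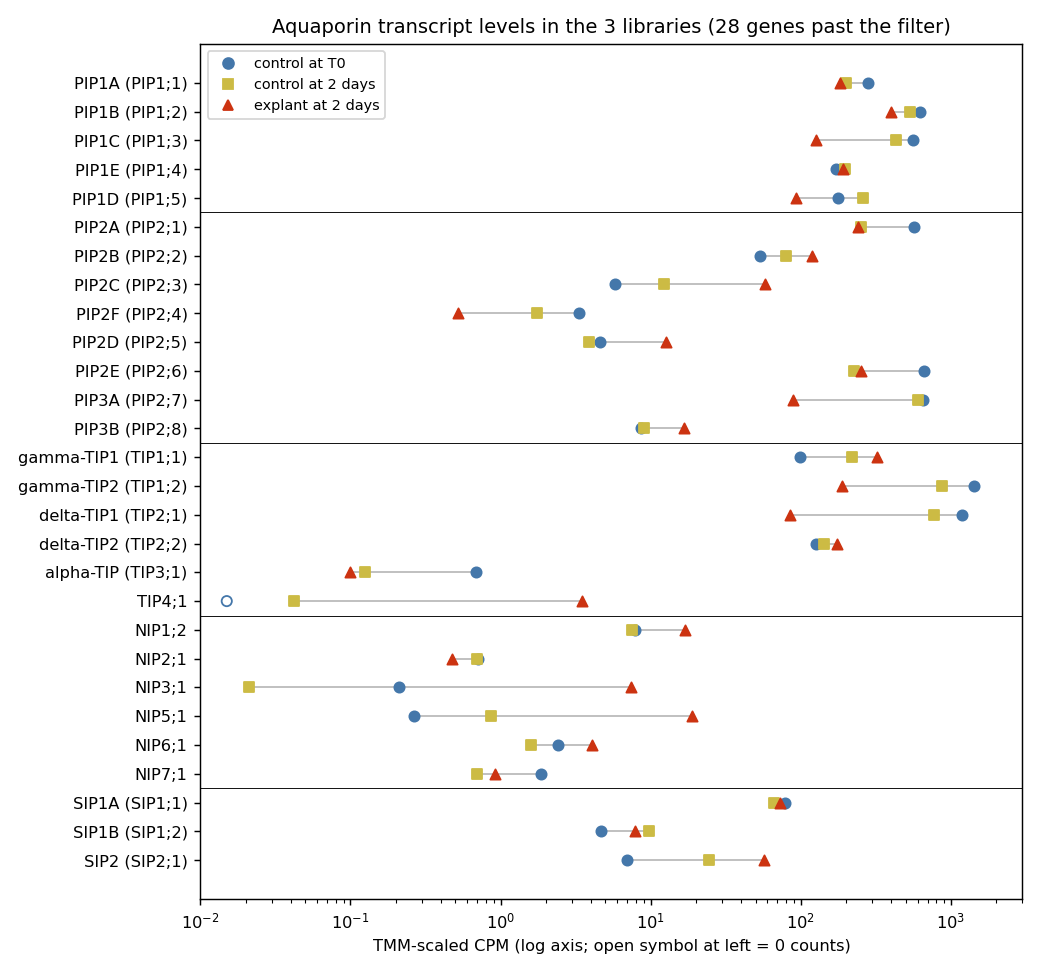
Scaled CPM (log axis) of the 28 aquaporins past the filter in the T0 control (circles), the 2-day control (squares) and the 2-day explant (triangles), by class; each symbol is 1 library and the grey line spans the range. Open symbols at the left edge are 0 counts. Of a gene's 3 symbols, that of the wounded explant is at the low end for delta-TIP1 (84.9 CPM) and at the high end for NIP5;1 (19.0 CPM).

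The wounded explant was first set against the 2-day control, the label's control for the same number of days. The main vacuolar channels of the control leaf, gamma-TIP2 and delta-TIP1, were lower in the wounded explant, as were PIP3A, PIP1C, PIP1D and PIP2F of the plasma membrane. Higher were the boric acid channel NIP5;1, NIP3;1, TIP4;1, PIP2C, PIP2D and SIP2. Of the 28 genes compared, 6 were called higher, or 21.4%, where 10.0% of all genes were. Another 6 were called lower, again 21.4%, against 6.74% of all genes, which makes 42.9% called either way beside 16.8%. A gene with many counts has a narrower interval and is called more easily. The shares of all genes, here and below, were not matched for level. The median log2 ratio of the 28 was 0.15 and that of all genes 0.0, with calls in both directions. For NIP3;1 and TIP4;1 the count filter was passed through the wounded explant alone, so these 2 had to be high there.

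The wounded explant was next set against T0, and since both comparisons use 1 explant library they are not independent. Here 8 of 28 were higher (28.6%, with 17.8% of all genes) and 8 lower (28.6%, with 13.3% of all genes), in all 57.1% beside 31.1%. The 8 higher include NIP3;1 and TIP4;1, which passed the count filter through the wounded explant alone, so they had to be high there. The 8 lower include alpha-TIP, which passed through T0 alone and had to be high at T0. The median log2 ratio was 0.02 beside 0.03 for all genes. TIP4;1, with 0 counts at T0, lies above that median at its fitted value and at its bound alike. The largest ratio with counts in both libraries was that of NIP5;1 and the smallest that of delta-TIP1.

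The 2 controls were also compared with each other. In the 2-day control gamma-TIP1 and SIP2 were higher than at T0, and PIP2A, PIP2E and alpha-TIP lower. These are 7.14% and 10.7% of the 28, beside 8.69% and 8.43% of all genes, and 17.9% either way beside 17.1%, shares that lie near the background. The median log2 ratio was -0.18, or -0.23 without TIP4;1, which had 2 counts and 0. Ratios to T0 depend on the scaling more than the others: with total counts the median log2 ratio of all genes moved to 0.31 in both comparisons with T0, a shift that bears on every T0 ratio here. alpha-TIP passed the filter through its T0 counts alone.

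**Figure D2:**
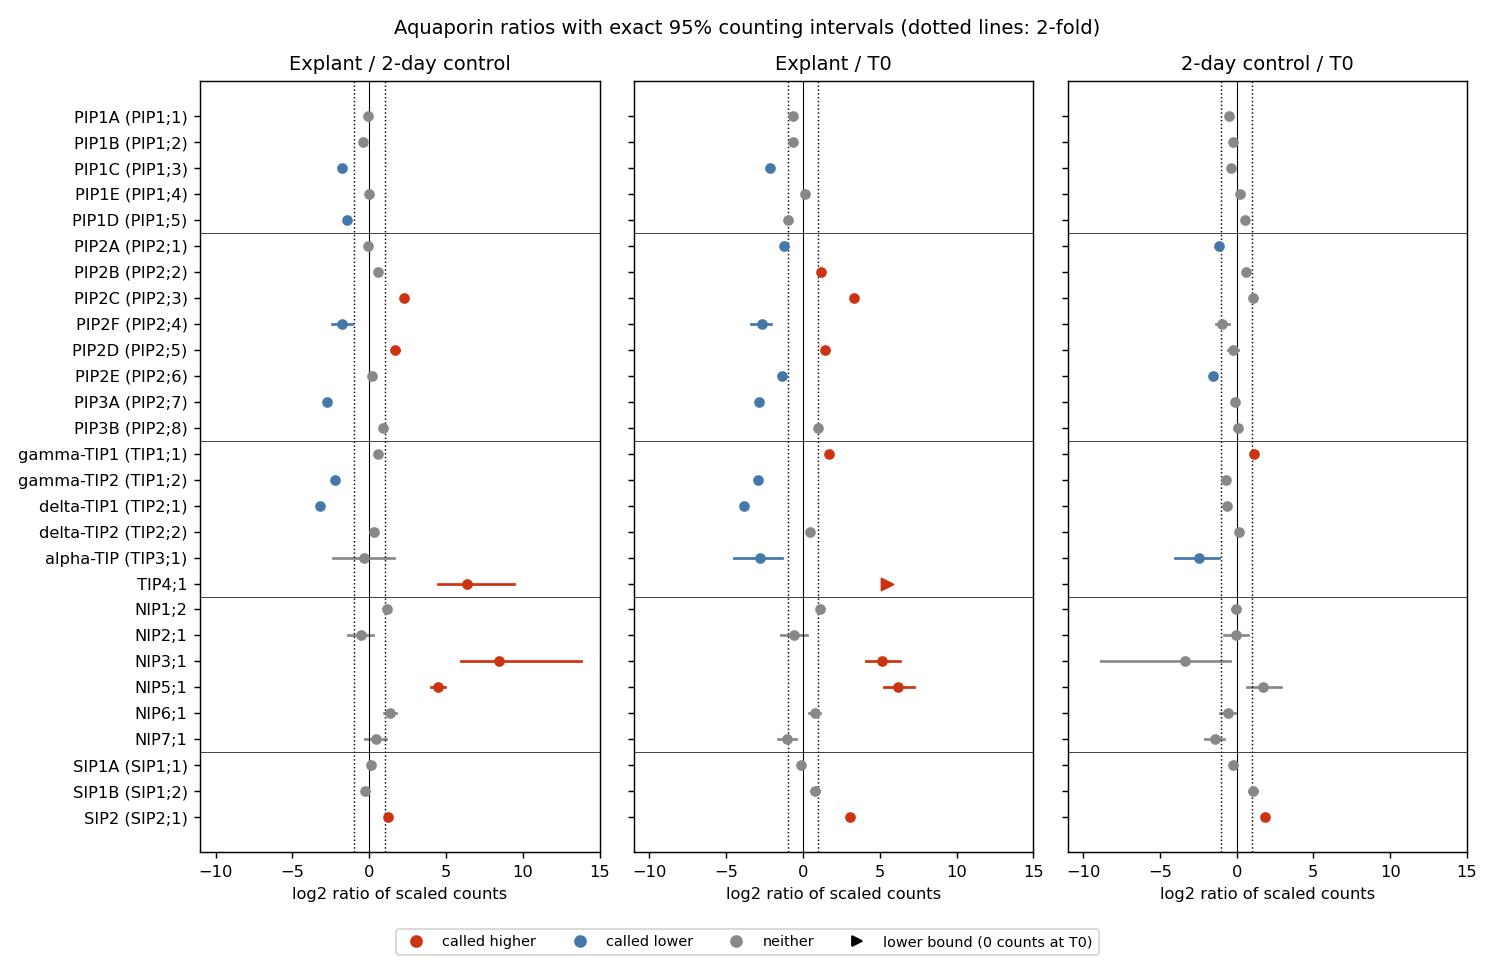
Log2 ratio of scaled counts for the 28 aquaporins in each comparison, with 95% counting intervals as lines, dotted lines at 2-fold, red for called higher, blue for called lower and grey for neither. The arrow for TIP4;1 marks at least this ratio, from 3 counts taken as the T0 floor, and the right panel leaves TIP4;1 out because both of its counts lie under that floor.

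The tonoplast channels changed rank. gamma-TIP2 (TIP1;2, AT3G26520), a highly expressed vacuolar water channel of leaves, had 1425 CPM at T0, 872 CPM in the 2-day control and 188 CPM in the wounded explant. It was 4.65 times lower in the wounded explant than in the 2-day control (4.55 to 4.76) and 7.60 times lower than at T0 (7.43 to 7.77). The 2-day control was 1.63 times below T0 (1.61 to 1.65), which did not pass. delta-TIP1 (TIP2;1, AT3G16240), which passes ammonia as well as water, had 1192, 776 and 84.9 CPM in the same order. Both were high in the controls and low in the wounded explant, delta-TIP1 by 9.14 times against the 2-day control (8.85 to 9.43) and 14.0 times against T0 (13.6 to 14.5). From T0 to the 2-day control the ratio of delta-TIP1 was 0.651 (0.642 to 0.660). Of the delta-TIP1 exon bases, 10.1% lie also in the model of PnsB3, a subunit of the chloroplast NDH complex, whose ratio between the 2-day libraries was 0.723 (0.694 to 0.752). In levels per kilobase, delta-TIP1 ranked 45 at T0 and 32 in the 2-day control among 20088 genes, and 1616 in the wounded explant. gamma-TIP2 ranked 36, 29 and 586.

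The order of gamma-TIP1 (TIP1;1, AT2G36830), the closest relative of gamma-TIP2, was the reverse. It had 99.2 CPM at T0, 219 CPM in the 2-day control and 323 CPM in the wounded explant. Its explant level was 3.26-fold higher than T0 (3.14 to 3.38) and 1.48-fold above the 2-day control (1.44 to 1.51), the second short of the limit. The 2-day control was itself 2.21-fold higher than T0 (2.13 to 2.29). delta-TIP2 (TIP2;2, AT4G17340) had 127, 143 and 176 CPM and was called in no comparison. Its ratios in the wounded explant were 1.23 to the 2-day control (1.19 to 1.27) and 1.38 to T0 (1.33 to 1.43), and the 2-day control stood at 1.12 of T0 (1.08 to 1.16). The makeup of the class turned over with these values. gamma-TIP2 and delta-TIP1 together held 92.3% of the TIP level per kilobase at T0, 82.5% in the 2-day control and 35.5% in the wounded explant. gamma-TIP1 and delta-TIP2 together held 7.63%, 17.5% and 64.0%. These shares do not depend on how the libraries are scaled.

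TIP4;1 (AT2G25810), a tonoplast channel known mainly from roots, was counted 0 times at T0, 2 times in the 2-day control and 174 times in the wounded explant. Its explant level of 3.47 CPM was 82.6-fold higher than the 2-day control (22.5 to 688) and at least 43.8-fold higher than T0, a bound set by the floor of 3 counts at T0. This transcript was close to absent from the controls, and it made up 0.483% of the TIP level in the wounded explant. alpha-TIP (TIP3;1, AT1G73190), a channel of seed storage vacuoles, had 26 counts at T0, 6 in the 2-day control and 5 in the wounded explant. It was called lower in the wounded explant than at T0, 6.89 times (2.60 to 23.0), on these few counts. In the 2-day control it was 5.45 times lower than at T0 (2.20 to 16.2), a call that was lost with total counts and at a 99% interval. Both calls were lost with a filter of 100 counts. In addition, 24.6% of its exon bases lie also in a neighbouring gene, AT1G73200, with 3348 counts at T0, 2438 in the 2-day control and 2101 in the wounded explant. The ratio of that gene to T0 was 0.474 in the wounded explant and 0.579 in the 2-day control. The part of its reads in the alpha-TIP counts was not tested.

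No PIP1 gene was called higher in any comparison, where 10.0%, 17.8% and 8.69% of all genes were, in the order of comparisons above. Of the 5, 2 were called lower in the wounded explant than in the 2-day control, beside 6.74% of all genes. Against T0 it was 1 of the 5, beside 13.3% of all genes. PIP1C (PIP1;3, AT1G01620) had 559 CPM at T0, 430 CPM in the 2-day control and 126 CPM in the wounded explant. It was 3.40 times lower in the wounded explant than in the 2-day control (3.30 to 3.50) and 4.42 times lower than at T0 (4.30 to 4.55), and the 2-day control stood at 0.7685 of T0 (0.754 to 0.783). PIP1D (PIP1;5, AT4G23400) had 178, 258 and 92.6 CPM, so the 2-day control was highest. Its explant level was 2.79 times lower than that control (2.70 to 2.88), and its ratio to T0 was 0.5195 (0.5004 to 0.539), which did not pass. The 2-day control stood at 1.45 times T0 (1.41 to 1.49). The other PIP1 genes were not called in any comparison. PIP1B (PIP1;2, AT2G45960), linked to carbon dioxide as well as water transport, had 623, 532 and 399 CPM, with ratios of 0.750 (0.736 to 0.764) to the 2-day control and 0.641 (0.629 to 0.653) to T0, and 0.855 (0.840 to 0.870) between the controls. PIP1A (PIP1;1, AT3G61430) had 282, 199 and 184 CPM, with ratios of 0.923 (0.897 to 0.9503) and 0.652 (0.634 to 0.670), and 0.706 (0.687 to 0.726) between the controls. PIP1E (PIP1;4, AT4G00430), known as an exception that rises in drying leaves, had 172, 196 and 192 CPM. For PIP1E the 2-day control and the wounded explant did not differ beyond counting error, with a ratio of 0.976 (0.949 to 1.005), and the wounded explant stood at 1.11 times T0 (1.08 to 1.15) and the 2-day control at 1.14 times (1.11 to 1.18). Its share of the PIP1 level per kilobase was 7.47% at T0, 9.53% in the 2-day control and 15.6% in the wounded explant.

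Within PIP2, members differed in both directions. PIP3A (PIP2;7, AT4G35100), a leaf water channel, had 655 CPM at T0, 602 CPM in the 2-day control and 88.9 CPM in the wounded explant. It was 6.78 times lower in the wounded explant than in the 2-day control (6.57 to 6.99) and 7.37 times lower than at T0 (7.14 to 7.61), while the controls stood within 1.09 times of each other. It held 52.2% of the PIP2 level per kilobase in the 2-day control and 11.6% in the wounded explant. PIP2F (PIP2;4, AT5G60660), a root isoform, was scarce throughout, with 126, 83 and 26 counts in the order T0, 2-day control and explant. It was 3.36 times lower in the wounded explant than in the 2-day control (2.14 to 5.44) and 6.42 times lower than at T0 (4.18 to 10.2). At a 99% interval the first of these calls was lost. The 2-day control stood 1.91 times below T0 (1.44 to 2.55).

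PIP2A (PIP2;1, AT3G53420), which carries water and hydrogen peroxide and acts in guard cells and veins, and PIP2E (PIP2;6, AT2G39010), an isoform of leaf veins, followed another course. PIP2A had 568 CPM at T0, 251 CPM in the 2-day control and 241 CPM in the wounded explant. PIP2E had 659, 227 and 252 CPM. Both were lower in each 2-day library than at T0, and the 2-day libraries lay close together. In the wounded explant against T0, PIP2A was 2.36 times lower (2.31 to 2.41) and PIP2E 2.61 times (2.56 to 2.67). In the 2-day control against T0 the values were 2.26 times (2.21 to 2.31) and 2.90 times (2.84 to 2.97). The PIP2A calls were both lost with total counts as the scaling. The ratio between the 2-day libraries was 0.959 for PIP2A (0.935 to 0.983) and 1.11 for PIP2E (1.08 to 1.14).

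The PIP2 genes called higher in the wounded explant each held 3.50% or less of the PIP2 level per kilobase at T0. PIP2C (PIP2;3, AT2G37180), also known as RD28 for its response to desiccation, had 5.78 CPM at T0, 12.3 CPM in the 2-day control and 58.0 CPM in the wounded explant. It was 4.71-fold higher in the wounded explant than in the 2-day control (4.31 to 5.15) and 10.04-fold higher than at T0 (8.75 to 11.6). The 2-day control stood at 2.13 times T0 (1.82 to 2.50), which passed with total counts. PIP2B (PIP2;2, AT2G37170), its tandem neighbour on chromosome 2 and a main water channel of roots, had 53.3, 79.8 and 118 CPM. PIP2B was 2.22-fold higher in the wounded explant than at T0 (2.11 to 2.34), and 1.48-fold above the 2-day control (1.42 to 1.54), which stood at 1.498 times T0 (1.42 to 1.58). The coding sequences of this pair are 94.8% identical, so reads may have been assigned to the wrong member. Their summed counts, which do not depend on that choice, gave 59.0, 92.1 and 176 CPM. The sum was 2.99-fold higher in the wounded explant than at T0 (2.85 to 3.13) and stood at 1.91 times the 2-day control (1.85 to 1.98), just short of the limit. PIP2D (PIP2;5, AT3G54820), like PIP1E known to rise in drying leaves, had 4.59, 3.90 and 12.6 CPM. The controls did not differ for it beyond counting error (0.849, 0.687 to 1.05), and the wounded explant was 3.24-fold higher than the 2-day control (2.75 to 3.83) and 2.75-fold higher than T0 (2.32 to 3.27). PIP3B (PIP2;8, AT2G16850) had 8.57, 9.01 and 16.8 CPM and ratios of 1.86 (1.66 to 2.10) and 1.96 (1.72 to 2.23) in the wounded explant, both short of the limit, and 1.05 (0.908 to 1.22) between the controls. Its ratio of the wounded explant to T0 passed with total counts.

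**Figure D3:**
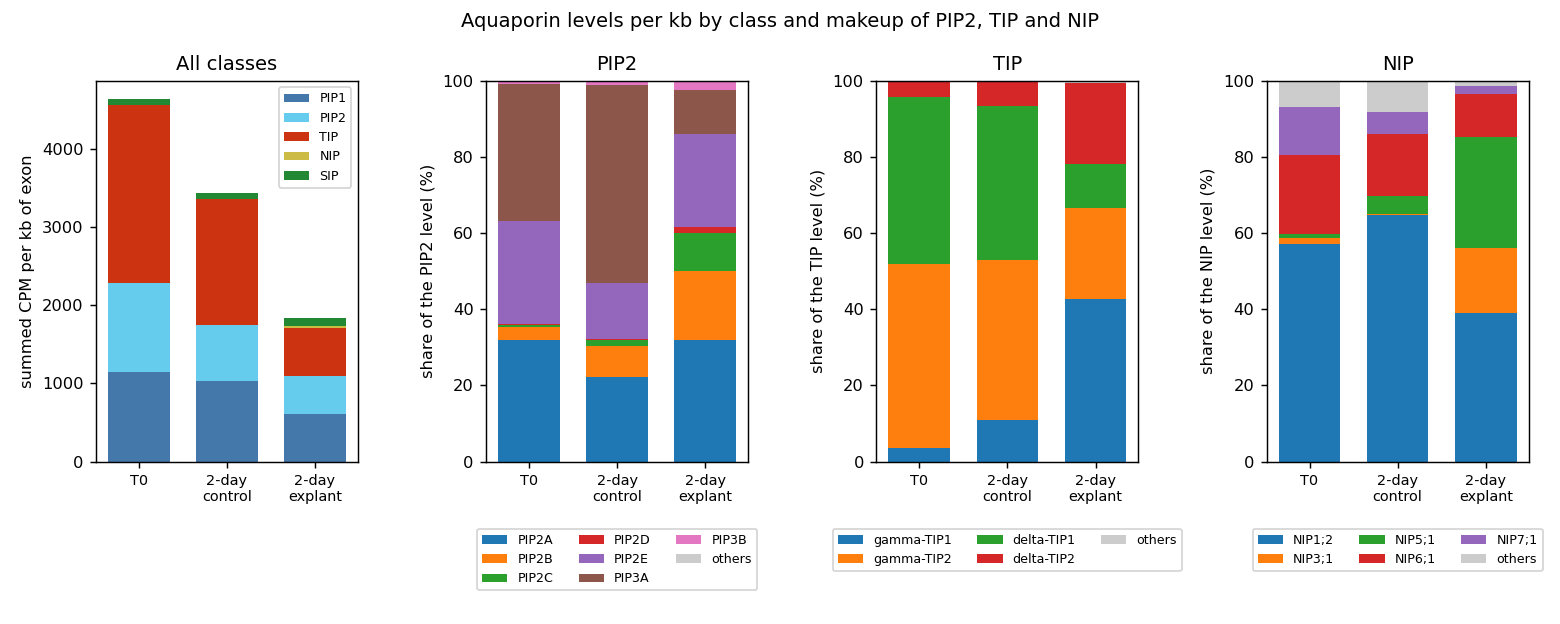
Left, summed CPM per kilobase of exon of the 5 subclasses in each library; the other panels, shares (%) of single genes in the PIP2, TIP and NIP level per kilobase, with 1 library per bar. The total is 4646 at T0 and 1843 in the wounded explant, and gamma-TIP1 takes 3.51% of the TIP level at T0 and 42.7% in the wounded explant.

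The NIP transcripts were scarce in both controls, and the boric acid channel led their difference in the wounded explant. NIP5;1 (AT4G10380), the channel for boric acid uptake into roots, had 10 counts at T0, 41 in the 2-day control and 952 in the wounded explant. Its level of 19.0 CPM in the wounded explant was 22.1-fold higher than the 2-day control (16.1 to 30.9) and 71.9-fold higher than T0 (38.9 to 150.3). The 2-day control was 3.26-fold above T0, with an interval (1.61 to 7.29) that reached below 2. NIP3;1 (AT1G31885) had 8 counts at T0, 1 in the 2-day control and 370 in the wounded explant. It was 34.9-fold higher in the wounded explant than at T0 (17.5 to 81.5), and its ratio to the single count of the 2-day control was 352 (62.7 to 13920). A locus that the reference lists as a transcribed pseudogene, AT2G21020, matches NIP3;1 at 95.5% identity over 375 bases, so counts may be shared between them. That locus had 1, 0 and 184 counts at T0, in the 2-day control and in the wounded explant, and was likewise called higher in the wounded explant. NIP3;1 and NIP5;1 together held 2.79% of the NIP level per kilobase at T0, 5.09% in the 2-day control and 46.3% in the wounded explant.

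The other NIPs past the filter were called in no comparison. NIP1;2 (AT4G18910), known for taking up aluminium bound to malate, had 7.91 CPM at T0, 7.53 CPM in the 2-day control and 16.9 CPM in the wounded explant. Its ratio between the 2-day libraries was 2.24 (1.98 to 2.54), at the edge of the limit, and it passed with total counts or DESeq2 size factors. Its ratio to T0 was 2.13 (1.87 to 2.44), which passed with total counts, and that between the controls 0.951 (0.813 to 1.11). NIP6;1 (AT1G80760), which passes boric acid toward young leaves, had 2.40, 1.59 and 4.06 CPM and ratios of 2.55 (1.95 to 3.36) to the 2-day control, 1.69 (1.31 to 2.19) to T0 and 0.664 (0.483 to 0.910) between the controls. NIP7;1 (AT3G06100), a boric acid channel of anthers, had 71, 33 and 46 counts and ratios of 1.32 (0.829 to 2.14) between the 2-day libraries, 0.489 (0.330 to 0.719) to T0 and 0.369 (0.237 to 0.566) between the controls. NIP2;1 (AT2G34390), a lactic acid channel induced by low oxygen, had 27, 33 and 24 counts, and no difference was detectable at this depth, with ratios of 0.691 (0.391 to 1.21), 0.671 (0.371 to 1.21) and 0.971 (0.566 to 1.68) in the same order.

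Of the SIPs, SIP2 (SIP2;1, AT3G56950) had 6.91 CPM at T0, 24.5 CPM in the 2-day control and 56.8 CPM in the wounded explant. It stepped up from library to library, and each comparison was called. The wounded explant was 2.32-fold higher than the 2-day control (2.17 to 2.49) and 8.23-fold higher than T0 (7.25 to 9.37), and the 2-day control was 3.55-fold higher than T0 (3.10 to 4.07). Of its exon bases 11.4% lie also in CRD1, a gene of chlorophyll synthesis with 1757, 335 and 382 CPM. The strand setting of the counting is not given. It is thus not known to which gene reads of the shared bases were counted, or whether they stayed out of the totals. SIP1A (SIP1;1, AT3G04090), an endoplasmic reticulum water channel, had 78.4, 65.9 and 72.5 CPM and was called nowhere, with ratios of 1.10 (1.05 to 1.15) between the 2-day libraries, 0.925 (0.881 to 0.971) to T0 and 0.841 (0.799 to 0.884) between the controls. SIP1B (SIP1;2, AT5G18290) had 4.67, 9.73 and 7.91 CPM. Its ratio of 2-day control to T0 was 2.08 (1.75 to 2.49), which passed with total counts. In the wounded explant its ratio was 0.813 to the 2-day control (0.709 to 0.931) and 1.69 to T0 (1.42 to 2.03).

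The 7 members under the filter were gamma-TIP3 (TIP1;3, AT4G01470), delta-TIP3 (TIP2;3, AT5G47450), beta-TIP (TIP3;2, AT1G17810), TIP5;1 (AT3G47440), NIP1;1 (AT4G19030), NIP4;1 (AT5G37810) and NIP4;2 (AT5G37820). Several of them are known from pollen or seeds rather than leaves. gamma-TIP3 had 10 counts in the wounded explant and 0 in both controls. NIP1;1 had 9 counts at T0, 12 in the 2-day control and 1 in the wounded explant. beta-TIP had 5 counts at T0 only, and NIP4;1 had 3 counts in the wounded explant only. delta-TIP3 and TIP5;1 had between 1 and 4 counts in every library, and NIP4;2 was listed at 0 throughout.

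Across the 28 genes, the highest level was found at T0 for 13, in the wounded explant for 12 and in the 2-day control for 3. Of the PIP1 genes none was highest in the wounded explant, whereas 4 of 8 PIP2, 3 of 6 TIP, 4 of 6 NIP and 1 of 3 SIP genes were. Among these, TIP4;1 and NIP3;1 passed the count filter through the wounded explant alone, so they had to be high there. Likewise alpha-TIP passed through T0 alone and had to be high at T0. The numbers of genes highest in each library describe single libraries, and neighbours in the order are not all separated by their counting intervals. They also depend on the scaling. With total counts the ratio of the 2-day control to T0 was 1.028 for PIP1B, 1.106 for PIP3A and 1.168 for NIP2;1. That of the wounded explant to T0 was 1.13 for SIP1A, so T0 was no longer highest for these genes. The same tally was not made over all genes.

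By coding sequence, 8 pairs with both members past the filter are each other's nearest relative in the family. In 6 of these, 1 member was called and the other was not, in 2 neither was, and in 0 were both. In that comparison 16.8% of all genes and 42.9% of the 28 aquaporins were called. Such shares count single genes, not pairs, and no tally was made of pairs that are not nearest relatives. The ratios of the 2 members lay on opposite sides of 1 in 3 of the 8 pairs, so that a call for 1 member alone does not mean opposite directions. Against T0, where 31.1% of all genes were called, 1 member alone was called in 3 pairs, both the same way in 1, both in opposite ways in 2 and neither in 2, and the ratios lay on opposite sides of 1 in 5. Between the controls, with 17.1% of all genes called, 1 member alone was called in 2 pairs and neither in 6, and 5 lay on opposite sides of 1. The difference itself was measured as the ratio of the 2 members' ratios, which does not depend on scaling. Relative to gamma-TIP2 (81.7% identical), gamma-TIP1 gained 6.86-fold (6.64 to 7.10) against the 2-day control and 24.7-fold (23.7 to 25.8) against T0. In levels per kilobase gamma-TIP2 stood 13.8 times above gamma-TIP1 at T0 and 3.82 times above it in the 2-day control, and in the wounded explant gamma-TIP1 was 1.80 times above gamma-TIP2. Relative to PIP3B (84.6% identical), PIP3A lost 12.6-fold (11.2 to 14.3) against the 2-day control. PIP3A held 98.4% of that pair in the 2-day control and still 83.0% in the wounded explant. Relative to PIP1E (85.2% identical), PIP1C lost 3.32-fold (3.19 to 3.45), which took PIP1C from 73.8% of the pair to 46.0%. Relative to NIP6;1 (67.4% identical), NIP5;1 gained 8.65-fold (5.64 to 13.4), from 23.1% of the pair to 72.3%. Relative to PIP2E (78.3% identical), PIP2D gained 2.92-fold (2.47 to 3.46), yet PIP2E stood 16.6 times above it per kilobase in the wounded explant. PIP2C gained 3.18-fold on PIP2B (2.88 to 3.51), with the doubt on read assignment given above. The 2 pairs with no call were PIP1A with PIP1B and SIP1A with SIP1B, for which the ratios differed by 1.23-fold (1.19 to 1.27) and 1.35-fold (1.17 to 1.56).

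**Figure D4:**
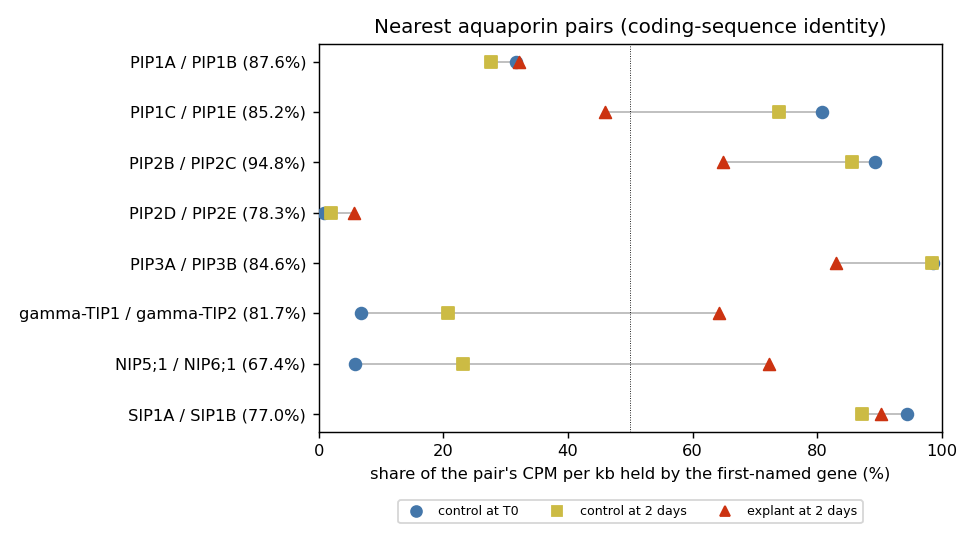
Share (%) of each nearest pair's CPM per kilobase held by the gene named first, in the T0 control (circles), the 2-day control (squares) and the wounded explant (triangles), with coding-sequence identity in brackets. For gamma-TIP1 with gamma-TIP2 the share is 6.77% at T0, 20.7% in the 2-day control and 64.2% in the wounded explant, and for PIP1A with PIP1B it stays between 27.7% and 32.1%.

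Genes that work beside these channels were looked at in 4 lists. Among 7 boron exporters, 5 passed the filter, and against the 2-day control 1 was higher and 1 lower in the wounded explant, beside 10.0% and 6.74% of all genes. BOR2 (AT3G62270), a boron exporter of roots, had 1.48 CPM at T0, 4.38 CPM in the 2-day control and 64.0 CPM in the wounded explant, 14.6-fold higher than the 2-day control (12.7 to 16.9). BOR1 (AT2G47160), which loads boron into the xylem, had 47.2, 105 and 41.8 CPM and was 2.52 times lower (2.39 to 2.65). BOR2 was thus high in the same library as NIP5;1, and BOR1 was not. Against T0, 1 of the 5, BOR2 at 43.4-fold (33.3 to 57.5), was higher in the wounded explant and 0 were lower, beside 17.8% and 13.3% of all genes. In the 2-day control 2 were higher than T0, BOR1 at 2.23-fold (2.11 to 2.36) and BOR2 at 2.97-fold (2.20 to 4.06), and 0 lower, beside 8.69% and 8.43%.

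The vacuolar proton pumps, which share the membrane of the TIPs, had no call. Of the 11, 0 passed the limit in any comparison. Of all genes, 16.8% passed between the 2-day libraries, 31.1% between the wounded explant and T0, and 17.1% between the controls. AVP1, the proton-pumping pyrophosphatase, stood lowest in the wounded explant, at 0.661 of the 2-day control (0.652 to 0.670) and 0.582 of T0 (0.574 to 0.590). The summed level of the 11 vacuolar pumps was 3616 CPM at T0, 3452 CPM in the 2-day control and 3428 CPM in the wounded explant. The plasma membrane proton pumps, which share the membrane of the PIPs, had 2 of 10 measured members higher and 1 lower in the wounded explant against the 2-day control, beside the same 10.0% and 6.74% of all genes. AHA2 had 129, 394 and 1242 CPM and was 3.15-fold higher (3.10 to 3.20), and AHA9 was 4.18-fold higher (2.80 to 6.44). AHA3, a phloem pump, was 2.06 times lower (2.01 to 2.12), close to the limit. Against T0, 3 of 10 were higher in the wounded explant, among them AHA2 at 9.63-fold (9.35 to 9.91) and AHA9 at 11.1-fold (5.66 to 24.75), and 1, AHA3, was 2.43 times lower (2.37 to 2.50), beside 17.8% and 13.3% of all genes. In the 2-day control 3 were higher than T0, among them AHA2 at 3.06-fold (2.96 to 3.15) and AHA7 at 4.46-fold (2.79 to 7.48), and 0 lower, beside 8.69% and 8.43% of all genes.

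Of 9 regulators of PIP channels, 1 was higher and 0 were lower in the wounded explant against the 2-day control, where 10.0% of all genes were higher and 6.74% lower. TSPO, a membrane protein induced by abscisic acid that binds PIP3A and leads it to degradation, had 11 counts at T0, 13 in the 2-day control and 230 in the wounded explant, 16.8-fold higher (9.63 to 32.1). It passed the count filter through the wounded explant alone, so it had to be high there. RMA1, a ubiquitin ligase that acts on PIP2A, had 114 CPM at T0, 15.9 CPM in the 2-day control and 11.1 CPM in the wounded explant. It was 10.3 times lower in the wounded explant than at T0 (9.44 to 11.3) and 7.21 times lower in the 2-day control (6.67 to 7.80). Against T0, 1 regulator was higher in the wounded explant, TSPO at 15.8-fold (8.66 to 32.1), and 1 lower, beside 17.8% and 13.3% of all genes. In the 2-day control 0 were higher than T0 and 2 lower, beside 8.69% and 8.43% of all genes. The second was SYP121, a syntaxin in the delivery of PIPs to the plasma membrane, 2.41 times lower (2.30 to 2.54).

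Markers checked the tissue and moved in part with the aquaporins. The 4 mesophyll genes summed to 13500 CPM at T0, 8863 CPM in the 2-day control and 6574 CPM in the wounded explant, and none of them was called between the 2-day libraries, while 2 of 4 were lower in the wounded explant than at T0. Both phloem genes, SUC2 and the proton pump AHA3 already counted above, were lower in the wounded explant than in the 2-day control, with sums of 742, 623 and 291 CPM. For AHA3 the interval (2.01 to 2.12 times lower) lay close to the 2-fold limit, and other scalings were not tried for the markers. The 4 xylem genes summed to 74.0, 28.8 and 13.9 CPM, with 1 of them called lower against the 2-day control and 4 of 4 against T0. That 1 was CESA4, 2.26 times lower (2.001 to 2.55), at the edge of the limit. The 3 guard cell genes summed to 127, 89.6 and 69.1 CPM with no call between the 2-day libraries. Of all genes, 16.8% were called between the 2-day libraries, 6.74% as lower, and 13.3% were lower in the wounded explant than at T0. Among the guard cell genes KAT1 had 75.3, 34.5 and 17.7 CPM, while MYB60 had 16.9, 18.1 and 18.5 CPM and FAMA 35.2, 37.0 and 32.9 CPM. The mesophyll, phloem, xylem and guard cell sums were lowest in the library where the PIP and TIP sums were lowest, and the part of these cell types in those results was not tested. Root hair markers were at or near 0, with EXPA7 at 0 counts in every library and sums of 0.0528, 0 and 0.0199 CPM. Of the root endodermis genes, MYB36 had 36 counts in the wounded explant and 0 in both controls, at least 11.4-fold higher than the 2-day control, and like VGD1 of the pollen list it passed the filter through the wounded explant alone. CASP1 had 2, 1 and 12 counts and CASP2 47, 13 and 5, and the list summed to 1.29, 0.294 and 1.06 CPM. The part of root-type cells in the NIP5;1, NIP3;1 and TIP4;1 values was not tested. The 5 seed genes summed to 0.211, 0.0419 and 0.0199 CPM, with 3 at 0 throughout. In the pollen list DUO1 was at 0 throughout, and VGD1 had 0, 3 and 124 counts. The part of pollen-type expression in the few gamma-TIP3 and NIP4;1 counts was not tested.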

How the data were processed

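RNA-seq counts of 3 libraries were used, 1 per group. The authors deposited raw counts per gene for each library, whole numbers not normalized. Per the submitters' processing notes FastQC, HTSeq and DESeq were used with the build TAIR10; the aligner, strand setting and versions were not given in the sources used here. Reads assigned to more than 1 gene were 2.12%, 2.18% and 2.17% of reads in the explant, the 2-day control and T0, and reads in no gene 0.700%, 0.763% and 0.677%; both stayed out of the totals.

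TMM scaling (edgeR 4.0.16, R 4.3.3) used genes with at least 30 counts in sum. Ratios have exact 95% intervals from the binomial split of a gene's counts, and calls need the interval past 2-fold. Log2 ratios use a prior count of 0.5. The floor for 0 counts is 3 counts per library. No model test was run. The call rule was tested on simulated data.

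Names, exon lengths, overlaps and coding-sequence identity (Biopython 1.88, blastn 2.17.0) came from TAIR10.1, which is not the submitters' build, so no coordinates are given. All 35 loci matched. Sequences are not used here beyond identity. Intervals used scipy 1.17.1, tables pandas 2.3.3 with Python 3.11.15, and figures matplotlib 3.10.9. DESeq2 1.42.0 gave size factors as an alternative. The members and lists were chosen with earlier results of these data known. By rule each aquaporin is named, with up to 2 higher and 2 lower genes per related list. AT2G21020, AT1G73200, CRD1 and PnsB3 were named after their values were seen.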

Additional observations from a re-analysis of the deposited data

How the results depend on the processing

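No paired analysis was possible because each group has 1 library, and for the same reason no library could be left out. The 8 alternatives tried were total counts, DESeq2 size factors, TMM without the 100 most abundant genes, filters of 1 and of 100 counts, limits of 1.5-fold and 4-fold, and a 99% interval. They were applied to the calls of the aquaporins and not to those of the related lists or the markers. Counts of called aquaporins stayed within 1.5 times except in these cases. At 4-fold, 3 were lower in the wounded explant than its control; 5 were higher and 5 lower against T0; and 0 higher and 0 lower in the 2-day control against T0. At 1.5-fold, the 2-day control against T0 had 5 higher and 6 lower. With total counts it had 4 higher, PIP2C and SIP1B being added, and 1 lower, PIP2A and alpha-TIP being lost. For the wounded explant against its 2-day control, the 6 higher and 6 lower calls were kept under each scaling, with NIP1;2 added to the higher ones under DESeq2 size factors and total counts. No called ratio reversed under any scaling. Of 103 ratios of genes and class sums, 58 left their counting interval with total counts, 17 with DESeq2 size factors and 0 without the most abundant genes. With total counts the sum of all aquaporins in the wounded explant stood at 0.499 of T0, in place of 0.408. Depth limits alpha-TIP, NIP2;1, NIP7;1 and PIP2F, with 37 to 235 counts in all.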
